A study of Mus musculus with 6 samples.

Results

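The genes described here make and handle small inflammatory mediators: leukotrienes and prostaglandins, which are eicosanoids, and the amines histamine and serotonin. They are 10 protein-coding genes chosen by name from the 55487 genes of the deposited table, and all 10 were found under 1 identifier each and passed the filter on low values. In cells carrying the DM form of MLLT3, Lta4h, which encodes the enzyme that makes leukotriene B4, fell to 53.9% of its level in cells carrying the WT form (3 libraries each). Hdc, which encodes the histamine-forming enzyme, also fell, while Ltc4s (leukotriene C4 synthase), Hpgds (a prostaglandin D2 synthase) and Slc6a4 (the serotonin transporter) rose by 1.38 to 1.42 times. Alox5, Alox5ap, Ptgs1, Ptgs2 and Tph1 did not pass the test. The calls of Lta4h, Ltc4s and Hpgds held in all 12 alternative analyses, and those of Hdc and Slc6a4 were lost in 7 and 6 of them.

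Eicosanoids are made from arachidonic acid, which phospholipases free from membranes. Alox5 encodes 5-lipoxygenase, and Alox5ap encodes FLAP, the membrane protein that presents arachidonic acid to it. Their product leukotriene A4 is used by either of a pair of enzymes: Lta4h turns it into leukotriene B4, a chemoattractant of neutrophils, and Ltc4s joins it to glutathione, which starts the cysteinyl leukotrienes of mast cells, eosinophils and macrophages. The cyclooxygenases encoded by Ptgs1 and Ptgs2 instead convert arachidonic acid to prostaglandin H2, from which Hpgds makes prostaglandin D2, the main prostaglandin of mast cells. Hdc converts histidine to histamine, Tph1 carries out the rate-limiting step of serotonin synthesis outside the brain, and Slc6a4 takes serotonin back into cells. In bone marrow, mast cells and basophils are the best known sites of histamine synthesis, and mouse mast cells also make serotonin.

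The study sequenced total RNA of cKIT+ cells taken from mouse bone marrow and given a lentivirus that overexpresses either MLLT3 WT (group WT, n = 3) or MLLT3 K63E K67E (group DM, n = 3), a form with 2 substitutions, K63E and K67E. MLLT3 reads acylated histones through its YEATS domain, and the comparison asks what the substitutions change once the endogenous gene is deleted. The transduced cells were sorted, and all 6 cultures, in both groups, received 200 nM 4-hydroxytamoxifen to delete the endogenous Mllt3 gene, mFlt3L at 10 ng/mL, 20 ng/mL each of mIL-3, mIL-6, mIL-11, mSCF, mGMCSF, hEPO and hTPO, and gentamycin, and were harvested from methylcellulose after 8 days. The labels give no strain, age or sex, no allele name for the deletable Mllt3 gene, no promoter for the vector, and no statement on whether replicates came from separate mice, so p-values measure the spread between these cultures only.

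Values are regularized log (rlog) values, a log2 scale adjusted for library size on which weakly expressed genes are drawn toward their mean, so a change is a difference in mean rlog and its antilog is a fold change that can be understated. Library depth is unknown, and the labels put all 6 libraries in batch 1. Gene coordinates are those of GENCODE M21 on GRCm38. The median over the 18766 tested genes lay between 8.03 and 8.11 in all 6 libraries. Mllt3 itself read 12.87, 12.60 and 12.44 in WT, against 12.44, 12.03 and 11.99 in DM, with the groups meeting at 12.44. It was lower in DM by limma (-0.48, 95% interval -0.79 to -0.17, adjusted p 0.0448), a call lost in 6 of 12 alternatives, among them those without WT replicate 1 (-0.36), WT replicate 2 (-0.50), DM replicate 2 (-0.42) or DM replicate 3 (-0.40), with adjusted p from 0.000949 to 0.161. These values do not check the deletion, because whether reads of the vector were counted under Mllt3 is not given in the sources used here. The groups thus differed in measured Mllt3 level as well as in the form of MLLT3, and effects of the substitutions and of that level cannot be told apart. Kit, the marker used to select the cells, ranged from 14.29 to 14.58 in WT and from 14.30 to 14.90 in DM, and the mast cell gene Cpa3 from 17.60 to 17.97 and from 17.81 to 18.26. Genes of several differentiated lineages were expressed, and in bulk RNA fewer cells of a type and less RNA per cell cannot be told apart.

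With limma across all 18766 genes and Benjamini-Hochberg adjustment, 5 of the 10 genes were called at an adjusted p under 0.05, against 13.9% of all genes tested. Of the 5, 3 were higher in DM (9.20% of all tested genes were called higher) and 2 were lower (4.71% were called lower). After quantile normalization the calls over all genes split into 1362 higher and 1292 lower, in place of 1727 and 884. For 7 of the 10 genes the WT and DM libraries did not overlap, as for 35.8% of all tested genes. The median change of the 10 was 0.12 and the median size of the change 0.32, against 0.01 and 0.10 over all tested genes. These 10 were picked with earlier results of the same data known, so the counts describe them and are not a test of the group.

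**Figure D1:**
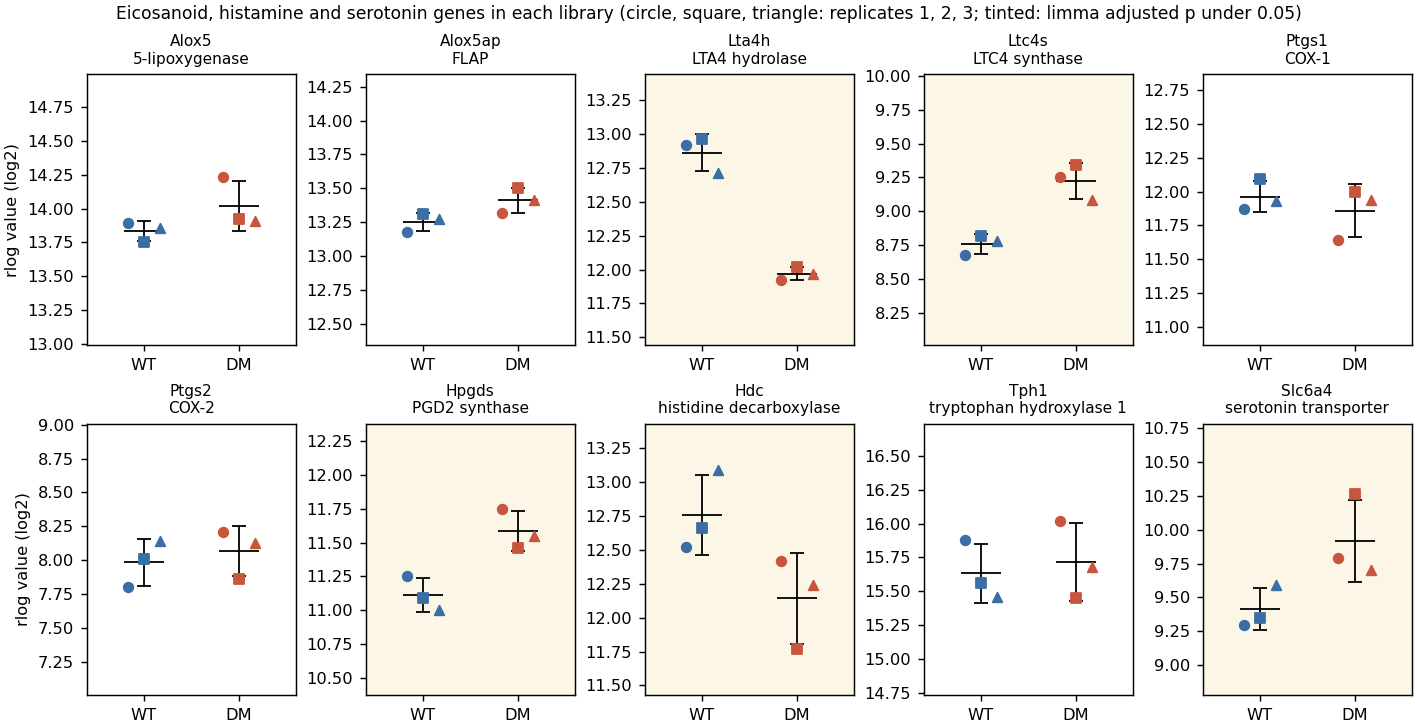
Each panel plots 1 gene, with the rlog value (log2) on a vertical axis that spans 2 units in every panel and the WT and DM libraries side by side; bars show the mean and SD of 3 libraries, and tinted panels passed the test. Lta4h separates the groups most widely, with WT from 12.71 to 12.96 and DM from 11.92 to 12.02.

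At the head of the leukotriene pathway, Alox5 (ENSMUSG00000025701.12; chromosome 6, 116410077 to 116461178, minus strand) had rlog values of 13.89, 13.75 and 13.86 for WT, listed by replicate number here and below, against 14.23, 13.92 and 13.91 for DM. The DM libraries all lay above the WT libraries, but 2 of them by only a few hundredths, and DM replicate 1 stood highest. The difference of 0.19 (95% interval -0.04 to 0.41) had a limma adjusted p of 0.242. After quantile normalization it was 0.01, and without DM replicate 1 it was 0.08.

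Alox5ap (ENSMUSG00000060063.9; chromosome 5, 149264767 to 149288153, plus strand), the FLAP gene, read 13.18, 13.31 and 13.27 in WT, against 13.32, 13.50 and 13.41 in DM. These groups also met without overlapping, at WT replicate 2 and DM replicate 1. The difference was 0.16 (95% interval -0.02 to 0.33, limma adjusted p 0.216), and it turned to -0.01 after quantile normalization. An antisense gene, Gm19719, lies opposite Alox5ap and had a difference of 0.15 (adjusted p 0.133). Whether strand was used when reads were counted is not given in the sources used here, so reads of the pair may be mixed.

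The steps after leukotriene A4 moved apart. The 250 bases in front of the RefSeq start of each gene (GRCm38.p6) are printed because Lta4h and Ltc4s share a substrate and changed in opposite directions. Capitals mark GAGGAA, a core bound by the myeloid factor PU.1, or its reverse complement TTCCTC, and any of the other 5 short motifs searched, which are spelled out with the promoter counts near the end. The window of Lta4h is chr10:93453146-93453395 on the plus strand, and that of Ltc4s is chr11:50238533-50238782 on the minus strand.
Lta4h: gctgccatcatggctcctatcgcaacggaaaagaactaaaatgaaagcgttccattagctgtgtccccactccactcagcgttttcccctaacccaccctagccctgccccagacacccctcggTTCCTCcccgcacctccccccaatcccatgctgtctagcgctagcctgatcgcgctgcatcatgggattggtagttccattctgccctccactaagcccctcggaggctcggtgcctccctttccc
Ltc4s: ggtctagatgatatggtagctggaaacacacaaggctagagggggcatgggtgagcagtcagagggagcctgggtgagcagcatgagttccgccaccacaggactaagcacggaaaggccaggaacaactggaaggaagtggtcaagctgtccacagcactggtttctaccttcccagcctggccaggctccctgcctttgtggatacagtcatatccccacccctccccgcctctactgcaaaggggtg
The Lta4h window holds TTCCTC once, 126 bases before the start, and the Ltc4s window holds none of the 6 motifs.

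Lta4h (ENSMUSG00000015889.8; chromosome 10, 93453411 to 93484875, plus strand) had rlog values of 12.92, 12.96 and 12.71 in WT, against 11.92, 12.02 and 11.97 in DM. Every DM library lay well below every WT library, and the DM libraries were close together. The means were 12.86 ± 0.136 (SD, n = 3) and 11.97 ± 0.0508 (SD, n = 3). Lta4h thus fell by 0.89 on the log2 scale (SE 0.0827, 95% interval -1.08 to -0.71, limma adjusted p 0.000348). It had the 49th smallest p of the 18766 tests, and 91 called genes, itself included, fell at least as far. The call held in all 12 alternatives, with the change between -1.0 and -0.84 and adjusted p from 0.000111 to 0.00348.

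Ltc4s (ENSMUSG00000020377.15; chromosome 11, 50236461 to 50238616, minus strand) read 8.68, 8.82 and 8.78 in WT, against 9.25, 9.34 and 9.08 in DM. No DM library reached down to a WT library, and the lowest DM value, in replicate 3, was 9.08. The means of 8.76 ± 0.0754 (SD, n = 3) and 9.23 ± 0.131 (SD, n = 3) differed by 0.46 (SE 0.0825, 95% interval 0.28 to 0.65, limma adjusted p 0.00781). This rise was called in all 12 alternatives, over which it ran from 0.40 to 0.53 with adjusted p from 0.00345 to 0.0363. The antisense gene Gm26542 lies opposite Ltc4s and differed by -0.01 (95% interval -0.15 to 0.14, adjusted p 0.965).

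Since both enzymes draw on leukotriene A4, the rlog value of Ltc4s minus that of Lta4h was taken within each library, a quantity chosen after the values were seen. It was -4.24, -4.13 and -3.92 in WT, against -2.67, -2.68 and -2.88 in DM, with no overlap. The log2 ratio of Ltc4s to Lta4h transcripts was therefore 1.35 higher in DM, a 2.56-fold shift. Neither gene overlapped between the groups and they moved in opposite directions, so the separation of this difference was fixed beforehand. With 3 libraries against 3 the two-sided exact permutation p was thus 0.1, the smallest that 20 splits allow, and it adds no support. Only the shift is read here, since rlog values are not scaled for transcript length and the ratio itself has no absolute meaning.

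Neutrophil markers as a sum were also lower in DM. Of 12 neutrophil markers, all tested, 10 were called lower in DM and none higher, where 4.71% of all tested genes were called lower. Their summed level (log2 of the summed antilogs) was 18.47 to 18.91 in WT and 16.87 to 17.78 in DM. The early neutrophil granule genes Mpo and Elane changed by -4.23 and -3.96, the largest falls of all tested genes, and the median over the list was -1.45. Within WT, the neutrophil sum was lowest in replicate 1 (18.47) and highest in replicate 3 (18.91). Lta4h was instead lowest in WT replicate 3 (12.71) and highest in WT replicate 2 (12.96). Within DM, the neutrophil sum and Lta4h were both lowest in replicate 1. The sum was highest in replicate 3, and Lta4h, which spanned only 11.92 to 12.02, in replicate 2. The part of neutrophil RNA in the fall of Lta4h was not tested.

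The genes around the leukotriene enzymes were taken from a list of 20 lipoxygenase pathway genes, of which 16 were tested, 3 rose and 1 fell (over all tested genes, 9.20% were called higher and 4.71% lower). Mgst3, a microsomal glutathione transferase of the same enzyme family as Ltc4s, rose by 0.45 (limma adjusted p 0.0203), and Abcc1, a transporter that exports leukotriene C4, rose by 0.36 (0.0149). Ptgr2, a prostaglandin reductase, rose by 0.29 (0.0198). Alox8, a lipoxygenase that acts on other positions of the fatty acid, fell by 0.59 (0.00484). Mgst2, the other glutathione transferase able to make leukotriene C4, differed by 0.06 (0.69), and Alox15 ranged from 8.05 to 8.57 in WT and from 7.57 to 8.54 in DM. Alox8 was called in all 12 alternatives. Mgst3 lost its call without WT replicate 1 (0.41) or DM replicate 2 (0.34), Abcc1 without DM replicate 1 (0.32) or 2 (0.36), and Ptgr2 in 5 alternatives, at 0.31 (WT replicate 1 or DM replicate 3 dropped), 0.29 (DM replicate 1 or the filter dropped) and 0.26 (DM replicate 2 dropped).

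Among 17 eicosanoid receptors and related receptors, 12 were tested, 3 rose and 1 fell, beside 13.9% called over all tested genes. The one that fell was Ltb4r1, the high-affinity receptor for leukotriene B4. Its rlog values were 9.34, 9.58 and 9.69 in WT, against 8.80, 9.04 and 9.26 in DM, a difference of -0.50 (SE 0.123, limma adjusted p 0.0254). All DM libraries were lower than all WT libraries, as for Lta4h, though the gap was narrow. The call was lost without WT replicate 2 (-0.48), WT replicate 3 (-0.42), DM replicate 1 (-0.38) or DM replicate 2 (-0.50), with adjusted p from 0.00121 to 0.0727 over the alternatives. Cysltr1 and Cysltr2, the receptors for cysteinyl leukotrienes, differed by 0.11 (95% interval -0.10 to 0.31) and 0.06 (-0.09 to 0.21) and did not pass the test.

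In the prostaglandin branch the cyclooxygenase genes did not pass the test and the prostaglandin D2 synthase rose. Ptgs1 (ENSMUSG00000047250.13; chromosome 2, 36230426 to 36252272, plus strand), the constitutive COX-1, read 11.87, 12.09 and 11.93 in WT, against 11.64, 12.0 and 11.94 in DM. The groups overlapped, and DM replicate 1 was the lowest library. The difference was -0.10 (95% interval -0.33 to 0.13, limma adjusted p 0.543), and 0.01 without DM replicate 1. Ptgs2 (ENSMUSG00000032487.8; chromosome 1, 150100031 to 150108227, plus strand), the inducible COX-2, read 7.80, 8.01 and 8.14 in WT, against 8.21, 7.86 and 8.13 in DM. Its libraries were interleaved, with a difference of 0.09 (95% interval -0.16 to 0.34, adjusted p 0.638) that was -0.01 without WT replicate 1.

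Hpgds (ENSMUSG00000029919.5; chromosome 6, 65117293 to 65144908, minus strand) had rlog values of 11.25, 11.09 and 11.0 in WT, against 11.75, 11.46 and 11.55 in DM. All DM libraries were above all WT libraries, and replicate 1 was the highest of each group. The means of 11.11 ± 0.126 (SD, n = 3) and 11.58 ± 0.152 (SD, n = 3) differed by 0.47 (SE 0.0946, 95% interval 0.26 to 0.69, limma adjusted p 0.0113). It was called in all 12 alternatives, with changes from 0.36 to 0.54 and adjusted p from 0.00121 to 0.038.

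Other prostanoid genes were measured as a list of 11 for synthesis and breakdown, of which 10 were tested, 2 rose and 8 did not pass, a share near the 13.9% called over all tested genes. Ptges, the inducible prostaglandin E synthase, rose by 0.44 (limma adjusted p 0.012), and Tbxas1, thromboxane A synthase, rose by 0.39 (0.00944). The cytosolic Ptges3 differed by -0.05 (0.697), and Ptgds, the other prostaglandin D synthase, had a mean under 3 and was not tested. Of the receptors, Ptger4 for prostaglandin E2 rose by 0.53 (0.00952), Ptgir for prostacyclin by 0.42 (0.0151), and Fpr2, a formyl peptide receptor that also binds the eicosanoid lipoxin A4, by 0.59 (0.0094). Ptger3 differed by 0.03 (0.855), and Ptgdr and Ptgdr2, the receptors for prostaglandin D2, had means under 3. Ptges, Tbxas1, Ptger4 and Fpr2 were called in all 12 alternatives, and Ptgir lost its call without WT replicate 1 (0.38) and without DM replicate 2 (0.34).

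Of 9 genes that release arachidonic acid, 6 were tested and 1 rose, also near the 13.9% called over all tested genes. Mgll, a lipase that can supply arachidonic acid from an endocannabinoid, rose by 0.65 (limma adjusted p 0.0137), and lost the call without WT replicate 1 (0.58) and without DM replicate 2 (0.58). Pla2g4a, the cytosolic phospholipase that feeds both branches, read 10.59, 10.62 and 10.46 in WT, against 10.81, 10.81 and 10.70 in DM. Those groups did not overlap, and the difference of 0.22 missed the threshold (adjusted p 0.0715).

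**Figure D2:**
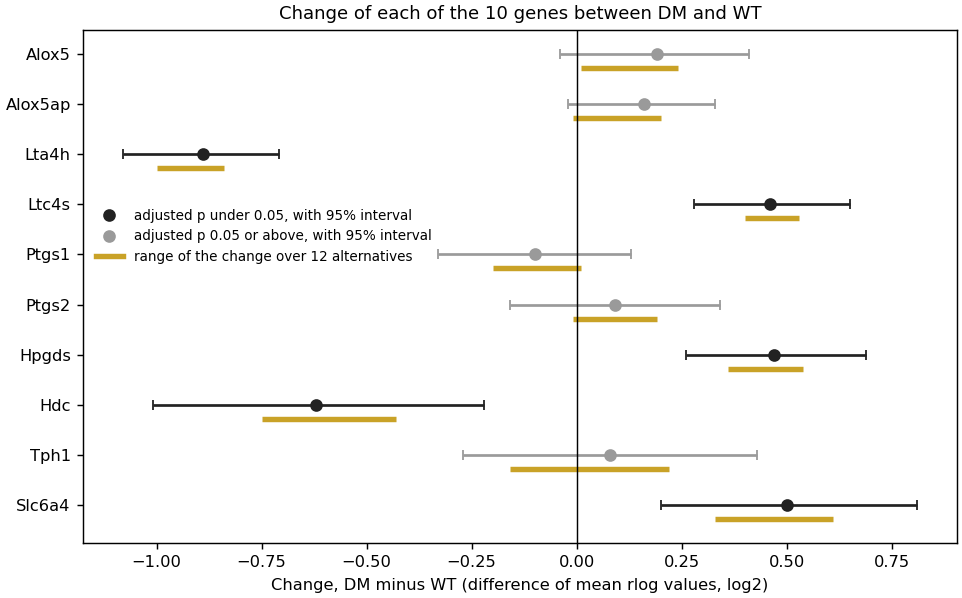
The horizontal axis gives the change of each of the 10 genes as DM minus WT in mean rlog (log2), with points and bars for the estimate and its 95% interval and a band for the range over 12 alternatives. Lta4h (-0.89) and Hdc (-0.62) lie to the left of 0, Ltc4s (0.46), Hpgds (0.47) and Slc6a4 (0.50) to the right, and the grey intervals of the other 5 genes cross 0.

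The amine genes were mixed: the histamine-forming enzyme fell, the serotonin transporter rose, and the serotonin-forming enzyme did not pass the test. The 250 bases before the RefSeq starts of Hdc (chr2:126618679-126618928, minus strand) and Hpgds (chr6:65144731-65144980, minus strand) are printed because both genes make mediators of mast cells and they changed in opposite directions. These RefSeq starts lie 621 (Hdc) and 178 (Hpgds) bases from the start of the GENCODE gene. The Hdc window thus lies wholly, and the Hpgds window partly, inside the GENCODE gene. Capitals mark the same motifs as above.
Hdc: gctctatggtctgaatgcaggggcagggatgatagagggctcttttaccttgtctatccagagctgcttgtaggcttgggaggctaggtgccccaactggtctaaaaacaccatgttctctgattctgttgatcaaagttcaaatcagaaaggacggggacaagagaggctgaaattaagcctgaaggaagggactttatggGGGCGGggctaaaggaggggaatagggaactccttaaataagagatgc
Hpgds: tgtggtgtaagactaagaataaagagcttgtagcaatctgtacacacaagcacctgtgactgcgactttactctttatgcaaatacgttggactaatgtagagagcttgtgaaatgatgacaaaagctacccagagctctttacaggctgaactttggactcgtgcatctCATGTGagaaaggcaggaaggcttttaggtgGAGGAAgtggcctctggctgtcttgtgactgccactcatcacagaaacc
The Hdc window holds GGGCGG, the GC box bound by Sp1, 48 bases before the start. The Hpgds window holds CATGTG, an E-box of the kind bound by MITF, at 80 bases and GAGGAA at 49 bases before the start, and shares none of the 6 motifs with Hdc.

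Hdc (ENSMUSG00000027360.5; chromosome 2, 126593667 to 126619299, minus strand) had rlog values of 12.52, 12.66 and 13.09 in WT, against 12.42, 11.77 and 12.24 in DM. The groups did not overlap, but WT replicate 1 and DM replicate 1 were close, and WT replicate 3 and DM replicate 2 formed the extremes. The means of 12.76 ± 0.298 (SD, n = 3) and 12.14 ± 0.335 (SD, n = 3) put Hdc 0.652 times as high in DM as in WT, a difference of -0.62 (SE 0.177, 95% interval -1.01 to -0.22, limma adjusted p 0.0457). The call was lost in 7 of 12 alternatives, with adjusted p from 0.0171 to 0.139. Among these were the fits without WT replicate 2 (-0.67), WT replicate 3 (-0.45), DM replicate 2 (-0.43) or DM replicate 3 (-0.67).

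The basophil protease genes Mcpt8 and Prss34 were read beside Hdc. Mcpt8 read 12.28, 12.94 and 13.22 in WT, against 12.55, 12.13 and 12.12 in DM, and Prss34 read 10.52, 11.11 and 11.48 in WT, against 10.67, 10.51 and 10.18 in DM. For both, as for Hdc, WT replicate 3 was the highest library and WT replicate 1 the lowest of its group. The summed neutrophil markers had the same order in WT (18.47, 18.76 and 18.91). In DM, Hdc and both proteases were highest in replicate 1, but Hdc was lowest in replicate 2 and the proteases in replicate 3. The protease differences of -0.54 (limma adjusted p 0.122) and -0.58 (0.0986) did not pass the test. The other basophil markers differed by 0.05 (Cd200r3), 0.12 (Fcer1a), 0.08 (Ms4a2), 0.12 (Il3ra), -0.02 (Gata2) and -0.23 (Il4). Over the 8 basophil markers, all tested, none was called, beside 13.9% of all tested genes. The summed level was 16.02 to 16.20 in WT and 15.93 to 16.37 in DM. That sum rests mostly on Fcer1a (mean rlog 14.38), Gata2 (14.28) and Ms4a2 (13.89), and Fcer1a and Ms4a2 are also on the mast cell list. Both proteases belong to families of similar genes, so their counts may be shared with relatives, and their part in the fall of Hdc was not tested.

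Tph1 (ENSMUSG00000040046.14; chromosome 7, 46644641 to 46672537, minus strand) read 15.88, 15.56 and 15.46 in WT, against 16.02, 15.45 and 15.68 in DM. The groups overlapped throughout, with replicate 1 the highest library of each. The difference was 0.08 (95% interval -0.27 to 0.43, limma adjusted p 0.758), and its sign turned after quantile normalization (-0.16), without WT replicate 3 (-0.0046) and without DM replicate 1 (-0.07).

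Slc6a4 (ENSMUSG00000020838.12; chromosome 11, 76998603 to 77032340, plus strand) had rlog values of 9.30, 9.35 and 9.59 in WT, against 9.79, 10.26 and 9.70 in DM. DM replicate 2 stood above the rest, and DM replicate 3 was only slightly above WT replicate 3. The means of 9.42 ± 0.156 (SD, n = 3) and 9.92 ± 0.3 (SD, n = 3) differed by 0.50 (SE 0.138, 95% interval 0.20 to 0.81, limma adjusted p 0.0386). The call was lost in 6 of 12 alternatives, with adjusted p from 0.0225 to 0.125: without WT replicate 1 (0.45), WT replicate 2 (0.47) or DM replicate 2 (0.33), without the filter (0.50), after quantile normalization (0.44) and after centring on library medians (0.47).

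The list of 20 other genes for amine synthesis, storage and breakdown had 14 tested genes, of which 6 rose and none fell, where 9.20% of all tested genes were called higher and 4.71% lower. Among the breakdown genes, a gene for histamine and a gene for serotonin rose, while Aoc1 had a mean under 3 and was not tested. Hnmt, which methylates histamine, read 7.47, 7.64 and 7.33 in WT, against 7.97, 8.33 and 7.88 in DM, a rise of 0.58 (SE 0.122, limma adjusted p 0.0139). Maoa, the monoamine oxidase that degrades serotonin, read 10.06, 10.50 and 9.43 in WT, against 11.15, 11.29 and 10.75 in DM, a rise of 1.07 (SE 0.231, adjusted p 0.0153). All DM libraries were above all WT libraries for both genes, while Maob, whose enzyme shares substrates with that of Maoa, differed by 0.10 (0.657). Maoa was not called without DM replicate 2 (0.95), and Hnmt was called in all 12 alternatives.

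Genes for tetrahydrobiopterin, the cofactor of tryptophan hydroxylase, were on the same list. Gch1, which starts its synthesis, rose by 0.49 (limma adjusted p 0.00883) and was called in all 12 alternatives, and Qdpr, which regenerates it, rose by 0.35 (0.0214) but was not called without DM replicate 2 (0.30). Pts and Spr, the later steps of its synthesis, each differed by 0.19 (0.123 and 0.128). Tgm2, a transglutaminase that can attach serotonin to proteins, rose by 0.70 (0.00921) and was also called in all 12. Slc18a1, a vesicular monoamine transporter, rose by 0.31 (0.0477) and lost its call in 6 of 12 alternatives, with 0.25 and 0.32 when WT replicates 1 and 3 were dropped in turn, and 0.23 and 0.31 for DM replicates 2 and 3. Slc18a2, its relative in mast cells and platelets, differed by 0.30 (0.135), and Ddc, which makes serotonin from the product of Tph1, by 0.00 (95% interval -0.27 to 0.28). None of the 7 tested amine receptors of 17 was called by limma at the adjusted threshold, although 2 had an unadjusted p under 0.05, Hrh1 (-0.09, adjusted p 0.152) and Htr2a (-0.21, 0.0936).

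**Figure D3:**
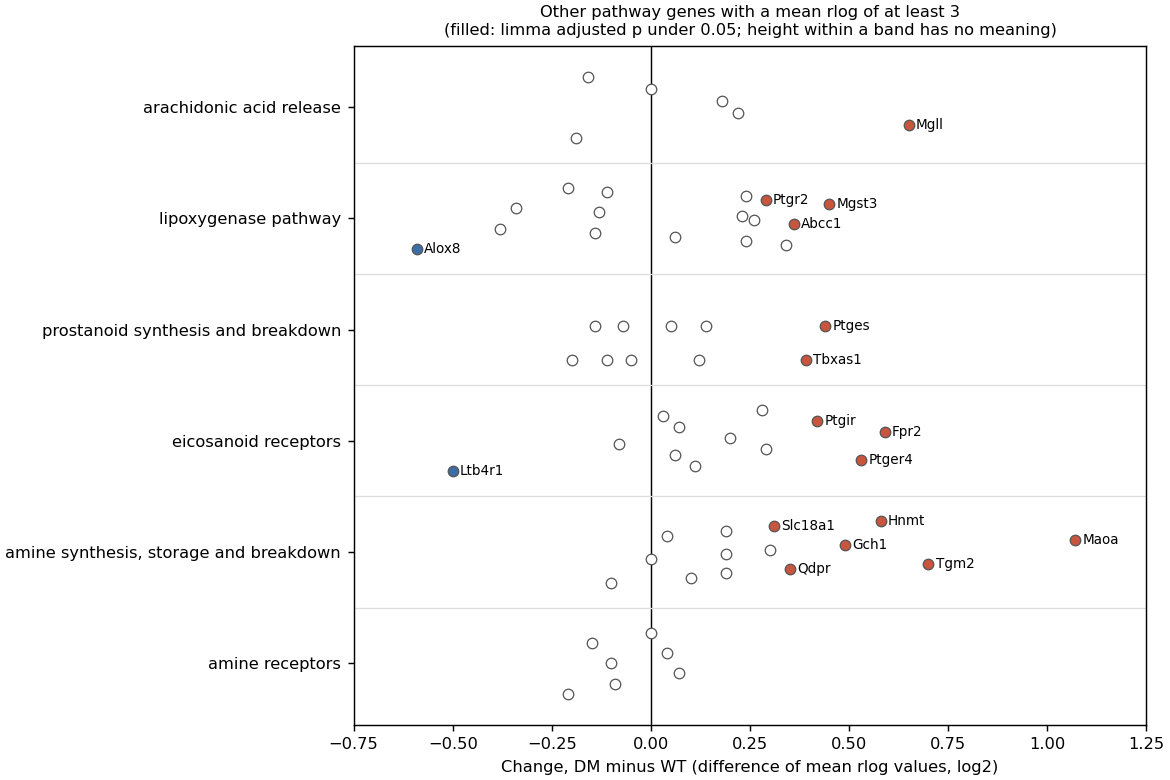
Each point is 1 of 65 tested pathway genes other than the 10, placed by its change (DM minus WT, mean rlog, log2) in the band of its list; filled and named points passed the test. Of these, 15 lie to the right of 0, up to Maoa at 1.07, and 2 lie to the left, Alox8 (-0.59) and Ltb4r1 (-0.50).

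Over all 94 pathway symbols, 65 were tested, 26 had a mean under 3, and 3 could not be matched to a single gene. Of the 65, 15 rose, 2 fell and 48 did not pass, where 9.20% of all tested genes were called higher and 4.71% lower, and the median change was 0.10 against 0.01 over all tested genes. The groups did not overlap for 33 of them, and for 35.8% of all tested genes. For 8 of the 17 called genes the call held in all 12 alternatives. The other 9 all lost it when DM replicate 2 was left out, which brought the number of called genes to 8.

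Markers of the lineages in these cultures were summed per library. Over all tested genes, 9.20% were called higher and 4.71% lower, and the counts of called markers stand beside these shares. The mast cell count, of 1 gene, is near the share called higher. Mast cell markers, 9 of 10 tested with Mrgprb2 under a mean of 3, had 1 gene called higher, Mitf (0.52, limma adjusted p 0.00293), and a summed level of 18.85 to 19.25 in WT and 18.91 to 19.39 in DM. Monocyte and macrophage markers, 11 of 12 tested with C1qa under 3, had 8 called higher and 2 lower (the monocyte genes Ly6c2, -1.13, and Ccr2, -0.78), and summed to 18.28 to 18.97 in WT and 19.26 to 19.63 in DM. Eosinophil markers, 7 of 7 tested, had 3 called lower, Epx (-1.46), Prg2 (-1.16) and Prg3 (-1.29). Siglecf (-0.17), Ccr3 (-0.11), Il5ra (-0.12) and Ear2 (0.29) did not pass the test. The eosinophil sum was 15.10 to 15.22 in WT and 13.91 to 14.34 in DM. It rests mostly on Prg2 (mean rlog 13.60) and Epx (13.01). Megakaryocyte and platelet markers, 8 of 9 tested with Gp1bb under 3, had 2 called higher and summed to 14.23 to 14.49 in WT and 14.51 to 14.89 in DM. Erythroid markers, 8 of 10 tested with both alpha globin genes under 3, had none called and summed to 12.67 to 12.78 in WT and 12.42 to 12.77 in DM. Of 7 lymphocyte markers 2 were tested and none called. No marker was listed at exactly 0.

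The rises of Ltc4s, Hpgds, Maoa and Tgm2 thus went with a higher sum of monocyte and macrophage markers, that of Slc6a4 with a slightly higher sum of platelet markers, and the fall of Lta4h with lower neutrophil and eosinophil sums. Within DM, the monocyte and macrophage sum was highest in replicate 2 and lowest in replicate 1. Ltc4s, Maoa and Tgm2 were also highest in replicate 2 but lowest in replicate 3. Hpgds was highest in replicate 1 and lowest in replicate 2. The eosinophil sum was highest in DM replicate 3 (14.34) and lowest in DM replicate 2 (13.91), where Lta4h was highest (12.02). In WT, the eosinophil sum and Lta4h were both highest in replicate 2 (15.22 and 12.96). The sum was lowest in WT replicate 1 (15.10), and Lta4h in WT replicate 3 (12.71). The part of these lineages in each change was not tested. Mast cell markers as a sum overlapped between the groups.

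**Figure D4:**
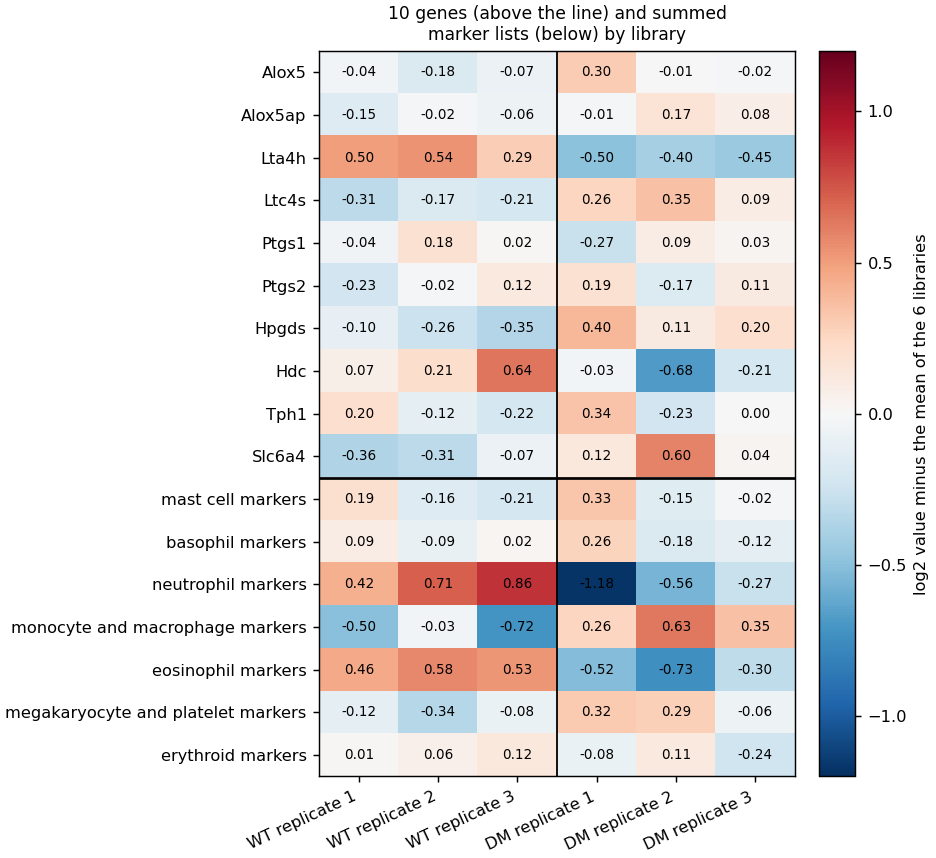
Colours and printed numbers give the log2 value in each library minus the mean of all 6, for the 10 genes (rlog) above the line and for the summed markers of 7 lineages below it. Lta4h (from 0.29 to 0.54 in WT and from -0.50 to -0.40 in DM) and the neutrophil and eosinophil sums are high in every WT library and low in every DM library, whereas Tph1 and the mast cell sum are highest in replicate 1 of each group.

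For each called gene, the 3 genes with the most similar profile over the 6 libraries were found among 11962 genes with a mean of at least 6, by the root mean square (RMS) difference of values centred on each gene's mean. For Lta4h these were Pxylp1 (RMS 0.0663, change -0.83), Arsb (0.0718, -0.79) and Sh2d5 (0.072, -0.95). Ltc4s was matched most closely by Prag1 (0.039, 0.41), Sema4d (0.0415, 0.40) and Pdp1 (0.0452, 0.42). For Hpgds they were P2rx4 (0.047, 0.43), Tgfbr1 (0.0522, 0.44) and Gch1 (0.0523, 0.49), the last being the cofactor gene described above. The profiles nearest to Hdc were Satb1 (0.111, -0.57), Asb2 (0.14, -0.44) and Cdh17 (0.16, -0.42), and those nearest to Slc6a4 were Ace (0.103, 0.32), Gm22751 (0.108, 0.57) and Zfp503 (0.112, 0.50). Asb2 (adjusted p 0.0568) and Ace (0.175) did not pass the test themselves. The nearest profiles of Hdc and Slc6a4 lay farther off than those of the other 3 genes, whose libraries varied less within groups.

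Promoter windows of 250 bases were available from RefSeq for 9 of the 10 genes, Alox5ap being the exception, and were searched on both strands for 6 motifs. GAGGAA was found in 6 of the 9 windows (Alox5, Lta4h, Ptgs1, Ptgs2, Hpgds and Tph1) and in 23.3% of 32851 windows of the same length. GGGCGG was in 4 windows (Alox5, Ptgs2, Hdc and, with 3 copies, Slc6a4) and in 32.7% of all. CATGTG was in 2 (Hpgds and Slc6a4; 12.3% of all), and the GATA core GATAA in 1 (Alox5; 22.6% of all). The E-box CACGTG and the TATA box TATAAA were in none of the 9 windows and in 6.02% and 12.4% of all windows. The windows with GAGGAA belong to 1 gene that fell, 1 that rose and 4 that were not called. A match gives letters in a window, not a bound site.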

How the data were processed

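RNA-seq of 6 libraries (3 WT, 3 DM) was analysed from 1 table. The values the authors deposited are regularized log values on the log2 scale, as read from the table's name and its values, which run from -1.97 to 21.88 and hold no counts, so depth is unknown and no counting interval was computed. The submitters' processing notes name cutadapt 2.6, STAR 2.7.3, DESeq2 1.30.0 and mm10. The counting tool, annotation and use of strand are not given in the sources used here.

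The table's 142699 lines, repeated with identical values, were merged into 55487 genes, and 97.9% of gene identifiers matched GENCODE M21. DM was compared with WT by limma 3.58.1 (lmFit, and eBayes with a trend, two-sided) in R 4.3.3 over 18766 genes whose mean was 3 or higher, with Benjamini-Hochberg adjustment and a threshold of 0.05. The script was tested on simulated data. The 12 alternatives were no filter, a mean of at least 5, no trend, quantile normalization, centring on library medians, a replicate block, and each library left out in turn.

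The 10 genes, the pathway lists and the marker lists were chosen with earlier results of these data known. The rule for names was all 10 genes, every called pathway gene, and for each called member the 3 genes most alike. Pathway genes named without a call, single markers, and the difference of Ltc4s and Lta4h were chosen after their values were seen. Promoter windows are from RefSeq on GRCm38.p6, whose starts can differ from those of GENCODE. For the windows printed, the distance was 15 bases (Lta4h), 84 (Ltc4s), 178 (Hpgds) and 621 (Hdc).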

Additional observations from a re-analysis of the deposited data

How the results depend on the processing

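The number of genes called, 2611, ranged from 1119 to 3475 as each library was left out in turn (1185 for WT replicate 1, 1119 for DM replicate 2, 1537 for DM replicate 3). Of the 10 genes, 5 were called, against 3 without the filter on the mean, 3 after centring on library medians, and 3 to 5 with a library left out. The 17 called pathway genes became 8 to 17 with a library left out. Samples with the same replicate number deviated from their group means with correlations of 0.491, 0.116 and 0.041, and not every library correlated best with its own number. The labels do not say that a number marks a shared preparation, and a pairing was not assumed. With the replicate block, 3742 genes, 5 of the 10 and 26 pathway genes were called. Lta4h, Ltc4s and Hpgds were called under all 12 alternatives, Hdc and Slc6a4 were not. Signs turned only for uncalled members: Alox5ap (-0.01) and Tph1 (-0.16) after quantile normalization, and, with a library left out, Ptgs1 (-0.17 to 0.01), Ptgs2 (-0.01 to 0.19) and Tph1 (-0.07 to 0.22). The cause of these differences was not tested. The rlog scale draws low genes to their mean, which limits what can be read for those near a mean of 3.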

Other observations

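Replicate 1 was the highest library of its group, in both WT and DM, for several genes, noticed after the values were seen. These were Tph1 (15.88 and 16.02), Hpgds (11.25 and 11.75), Alox5 (13.89 and 14.23), Kit (14.58 and 14.90), Cpa3 (17.97 and 18.26), Ddc (11.03 and 11.13), which completes serotonin synthesis, the vesicular transporter Slc18a2 (12.30 and 12.71) and Maob (12.38 and 12.56). The summed mast cell markers (19.25 and 19.39) and the summed basophil markers (16.20 and 16.37) were also highest there. Hdc did not share this, since in WT replicate 1 it was the lowest of its group (12.52), nor did Mitf, which in WT was highest in replicate 2 (11.49). The labels do not say whether replicates of the same number were handled together.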
